A study of Mus musculus with 4 samples.

Results

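Of the 5350 regions formed by the NF-YA, NF-YB and NF-YC binding sites of mouse embryonic stem cells, 613 held an NF-YA site and an NF-YC site and no NF-YB site. The regions were made by pooling the sites of the 3 deposited lists and chaining those whose neighbouring centres lay within 200 bp. These 613 regions were 11.5% of all regions, and each held exactly 1 site of either list. They took in 13.2% of the 4642 NF-YA sites and 22.9% of the 2675 NF-YC sites. The cells were E14Tg2a, an embryonic stem cell line of strain 129/Ola origin, unmodified as far as the labels say, at passages 20 to 35 in serum medium with leukaemia inhibitory factor. They were fixed with 1% formaldehyde for 10 min, and chromatin was precipitated with 2 µg of antibody, a mouse monoclonal for NF-YA and rabbit polyclonals for NF-YB and NF-YC. Each subunit had 1 library and input DNA a further 1, so no value below has a replicate check and no difference was tested. The regions were thus chosen by the site calls of the 3 libraries, that is by tag count and fold over input, and tag counts, folds and widths are given as a description.

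NF-Y is a trimeric transcription factor that binds the CCAAT box, a common element of promoters. NF-YB and NF-YC pair through histone-fold domains that resemble those of the core histones H2A and H2B, and NF-YA then joins this dimer and makes the base-specific contacts in the minor groove. In the textbook model NF-YA does not bind DNA stably without the dimer, so a site of NF-YA and NF-YC would hold NF-YB as well. A region without an NF-YB site is one where the authors' caller listed none, which does not show that NF-YB was absent. An annotation or genome sequence of the build of the files, mm9, was not used here, so positions are given without genes and no sequence is printed.

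The NF-YA library had 11479998 tags kept for site calling, the NF-YC library 11390494 and the NF-YB library 13859303. NF-YB was therefore the deepest of the 3. Its minimum of 15 tags per site came to 1.08 tags per 1000000 kept tags, against 1.23 for the NF-YC minimum of 14 tags and 1.22 for the NF-YA minimum of 14 tags. Every list also required a fold of at least 7 over input, which is 0.508 tags per 1000000 kept tags for each input tag in each of the 3 libraries.

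For 2 of the 613 regions the description "without NF-YB" did not hold once the printed site intervals were compared. The region with most NF-YA tags, on chromosome 3 at 95428791 to 95429271 (mm9), held an NF-YA site of 226 tags that was 460 bp wide and an NF-YC site of 105 tags that was 480 bp wide. NF-YB sites of 96 and 219 tags overlapped its left and right ends by 40 bp each, and the nearer NF-YB centre lay 215 bp away. The region on chromosome 17 at 85357051 to 85357091 (158 NF-YA tags, 66 NF-YC tags) lay wholly inside an NF-YB site of 120 tags that was 540 bp wide, with its centre 210 bp away. A wide site thus placed the centres just past the 200 bp limit in both cases. In 3 further regions an NF-YB centre lay 250 to 275 bp away without overlap, namely on chromosome 7 at 144602711 to 144602771 (NF-YB site of 69 tags), on chromosome 19 at 8893931 to 8893971 (77 tags) and on chromosome 17 at 3557471 to 3557971 (22 tags). On the other side of the rule, the farthest NF-YB centre that still joined a region of all 3 subunits lay 200 bp from the nearer of the other centres, on chromosome 8 at 97604731 to 97605011 (88 NF-YB tags) and equally at 116158971 to 116159511 (24 NF-YB tags). By tag count, 26 regions of all 3 subunits held an NF-YB site with exactly the 15 tags of the minimum. Among them was the region on chromosome 2 at 5872111 to 5872311, where NF-YA had 33 tags, NF-YB 15 and NF-YC 23.

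The regions without NF-YB ranged from the weakest to nearly the strongest sites of both lists. NF-YA tags ran from 14 to 226 with a median of 34 (quartiles 24 and 53), and NF-YC tags from 14 to 146 with a median of 29 (20 and 44). In regions of all 3 subunits the medians were 70 NF-YA tags and 44 NF-YC tags, so those with NF-YB were the stronger group in both libraries, with wide overlap. Regions of NF-YA and NF-YB without NF-YC were weaker as well, with medians of 30 NF-YA tags and 34 NF-YB tags. The NF-YB median was 58 tags in regions of all 3 subunits. Within its own list the median NF-YA site of the 613 regions stood at percentile 49.3 by tags and the median NF-YC site at percentile 38.2. A total of 160 regions (26.1%, exact 95% binomial interval 22.7 to 29.8) had both sites in the upper part of their lists, above percentile 50, and 259 (42.3%) had both at or below it. In regions of all 3 subunits these shares were 58.9% and 14.6%. At the very edge, 8 of the 613 regions had the minimum of 14 NF-YA tags and 30 had the minimum of 14 NF-YC tags. Within 5 tags of the minimum lay 14.2% of their NF-YA sites and 23.2% of their NF-YC sites. The like shares in regions of all 3 subunits were 2.38% and 9.80%. Fold over input in the 613 regions had medians of 16.1 for NF-YA and 12.5 for NF-YC, against 28.8 and 18.7 where NF-YB was present. These intervals treat regions as independent and cover counting error only.

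**Figure D1:**
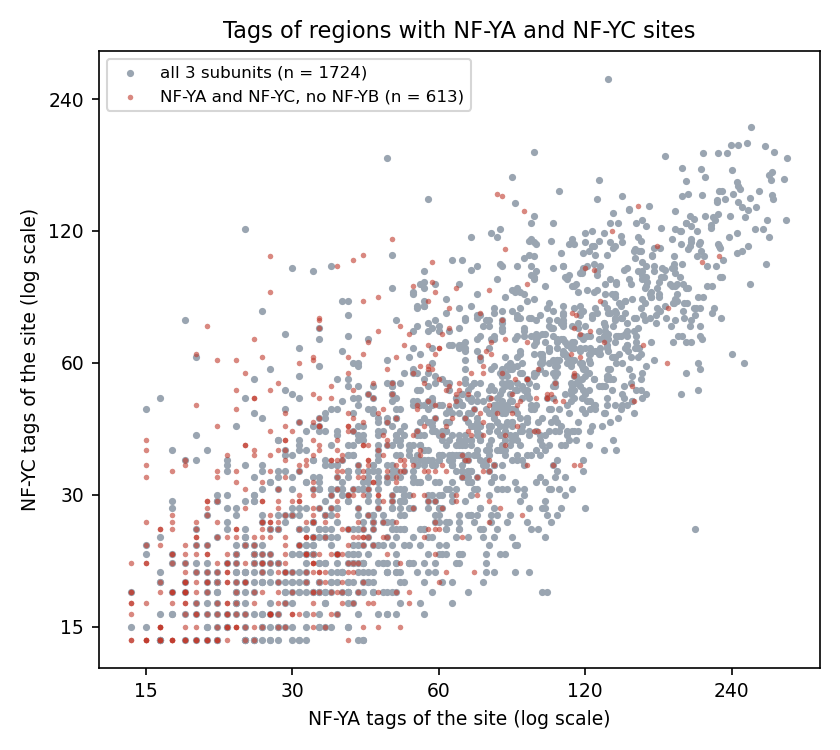
NF-YA tags (x, log scale) and NF-YC tags (y, log scale) of the strongest site of each list in 613 regions without an NF-YB site (red) and 1724 regions of all 3 subunits (grey), 1 point per region. The red points lie lower, with medians of 34 NF-YA and 29 NF-YC tags against 70 and 44 for the grey. They reach from the minimum of 14 tags to 226 NF-YA and 146 NF-YC tags, inside the grey cloud.

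Regions lacked an NF-YB site less often the more NF-YA tags they had. Of the 2337 regions with NF-YA and NF-YC sites, 26.2% had no NF-YB site. Divided into 10 bins of near-equal size by NF-YA tags, the share was 61.7% (interval 55.3 to 67.8) at 14 to 23 NF-YA tags, 35.7% (29.6 to 42.0) at 39 to 47 tags and 15.2% (10.9 to 20.4) at 72 to 87 tags. It was 3.88% (1.79 to 7.24) in the top bin of 149 to 312 tags. By NF-YC tags the decline was shallower, from 48.4% (42.1 to 54.8) at 14 to 18 NF-YC tags to 7.69% (4.62 to 11.9) at 92 to 267 tags. Splitting both at their medians of 58 NF-YA and 39 NF-YC tags gave 42.2% where both were at or below the median and 10.2% where both were above. Regions with more NF-YC but few NF-YA tags gave 37.1%, close to the first group, while those with more NF-YA but few NF-YC tags gave 14.0%, closer to the last. NF-YA tags thus ordered the regions by presence of an NF-YB site more than NF-YC tags did in these libraries. These shares come from the calls that define the groups, and each list stops at its minimum.

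The converse group, with NF-YA and NF-YB sites and no NF-YC site, was of like size, 601 of 2325 regions with NF-YA and NF-YB sites (25.8%). At 14 to 31 NF-YA tags, 52.2% of NF-YA and NF-YC regions lacked NF-YB (47.7 to 56.7) and 57.6% of NF-YA and NF-YB regions lacked NF-YC (53.3 to 61.7). The share without NF-YB was the lower one in 3 of the 10 bins of NF-YA tags and the higher one in the other 7, such as 35.7% against 27.3% at 39 to 47 tags. At 112 to 312 NF-YA tags, 25 of 468 regions lacked NF-YB (5.34%, 3.49 to 7.78) and 4 of 447 lacked NF-YC (0.895%, 0.244 to 2.28). Both shares rest on the same 3-subunit regions and on 1 library per subunit, and their difference was not tested. It includes the 2 regions with an overlapping NF-YB interval.

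**Figure D2:**
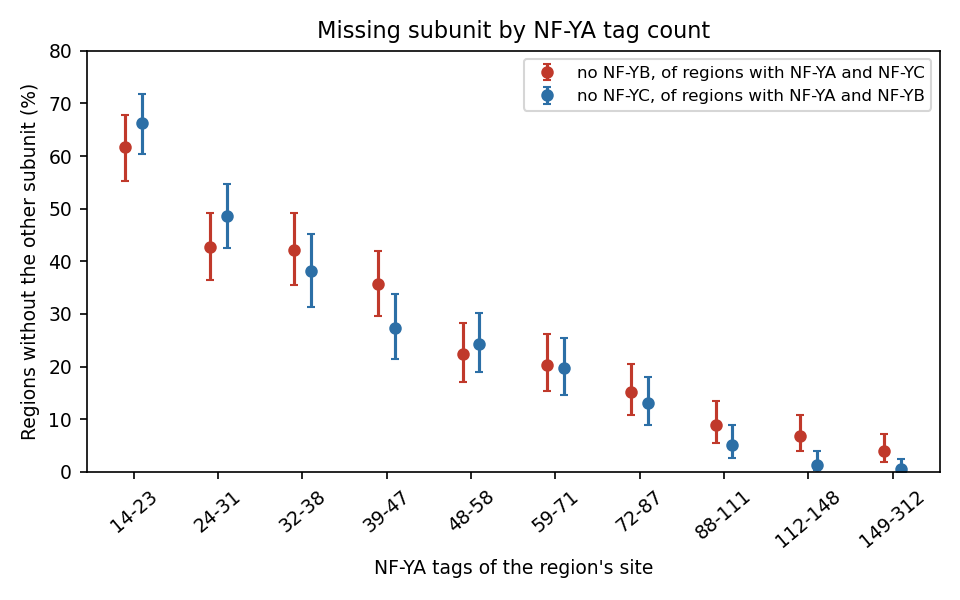
Percent of regions without NF-YB among those with NF-YA and NF-YC (red), and without NF-YC among those with NF-YA and NF-YB (blue), by NF-YA tags of the region (x, 10 bins); bars are exact 95% binomial intervals. Both fall from over 60% at 14 to 23 tags, and at 149 to 312 tags red stands at 3.88% and blue at 0.446%.

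Leaving aside the region on chromosome 3, the strongest region without NF-YB lay on chromosome 11 at 115626611 to 115626731, with 209 NF-YA tags (rank 73 of its list) and 102 NF-YC tags (rank 171). The nearest NF-YB site of any strength was 137140 bp away. Next by the mean of both ranks came chromosome 11 at 101414031 to 101414091, with 154 NF-YA and 137 NF-YC tags. A second region without NF-YB lay 685 bp from it, at 101413331 to 101413411, with 70 NF-YA and 41 NF-YC tags, and the nearest NF-YB site was 112765 bp from the stronger one. The pair is 1 of 2 pairs of such regions within 1 kb. These pairs make up 4 of the 33 regions without NF-YB that had any neighbour within 1 kb. Regions of this kind are 11.5% of all regions, so the count is near the background and no result about them. Chromosome 5 at 116295151 to 116295251 followed with 169 NF-YA and 111 NF-YC tags, and chromosome 6 at 30643751 to 30643811 with 136 NF-YA and 120 NF-YC tags. The third by NF-YA tags alone was chromosome 5 at 116009371 to 116009431, with 178 NF-YA tags against 80 NF-YC tags. Among the 100 sites of most tags in each list, 2 NF-YA sites and 5 NF-YC sites lay in regions without NF-YB, against 98 and 93 in regions of all 3 subunits. Without the region on chromosome 3 that overlapped NF-YB sites, 1 NF-YA site remained and the 5 NF-YC sites stayed.

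By NF-YA tags, strong regions without NF-YB were also regions of high input. The number of input tags behind a site was recovered from its deposited fold (lowest possible value 1), which succeeded for 558 of the 613 NF-YA sites. Its median was 3 input tags both in these regions and in the regions of all 3 subunits. Within bins of NF-YA tags, however, the median input of regions without NF-YB was higher in 8 of 10 bins and equal in the other 2. At like NF-YA tags a higher recovered input is the same as a lower NF-YA fold. In bins of NF-YC tags, with input from the NF-YC fold, the medians were 5 without NF-YB and 3 with it at 48 to 56 tags. They were equal in the top bins, at 4 for 70 to 91 NF-YC tags and 5 for 92 to 267. At 112 or more NF-YA tags, 22 of 23 regions without NF-YB had 4 or more input tags (95.7%, 78.1 to 99.9), against 279 of 433 regions of all 3 subunits (64.4%, 59.7 to 68.9). The exception, with an input of 1, was the region inside the wide NF-YB site on chromosome 17. Among all regions with 59 to 312 NF-YA tags, 16 of 493 with 1 to 3 input tags lacked NF-YB (3.25%, 1.87 to 5.22), and 100 of 620 with 4 to 15 input tags did (16.1%, 13.3 to 19.3). Where the input could not be recovered, 11 of 42 did (26.2%, 13.9 to 42.0). The regions of higher input had more NF-YA tags, a median of 109 against 91. Across all NF-YA tags the shares lacking NF-YB were close, 24.8% at 1 to 3 input tags and 26.0% at 4 to 15. Below 59 NF-YA tags the shares were 37.1% (33.9 to 40.4) and 52.6% (45.9 to 59.2). The converse group behaved likewise, with 2.65% lacking NF-YC at 1 to 3 input tags and 11.9% at 4 to 15, again at 59 to 312 NF-YA tags.

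**Figure D3:**
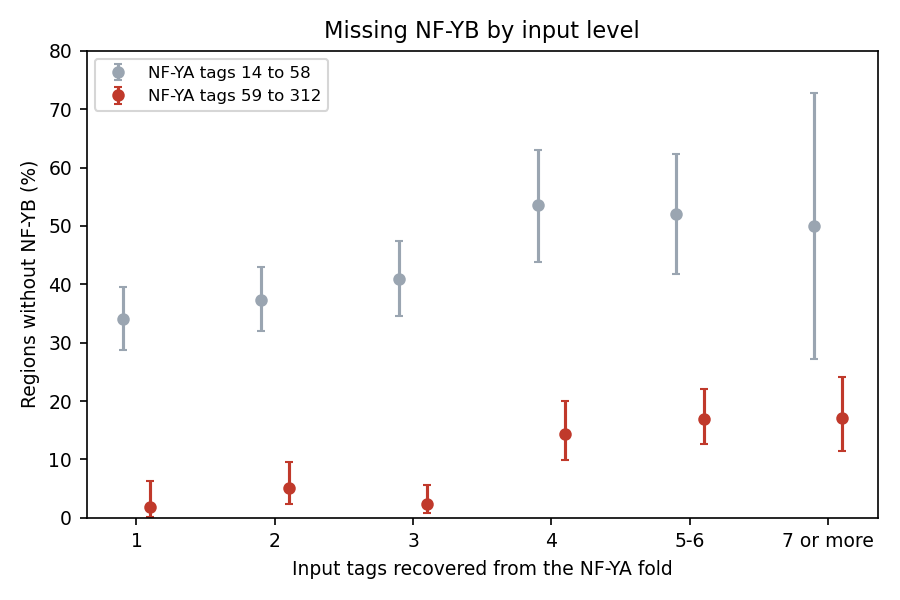
Percent of NF-YA and NF-YC regions without an NF-YB site (y) by the number of input tags recovered from the NF-YA fold (x), for regions with 14 to 58 NF-YA tags (grey) and 59 to 312 (red); bars are exact 95% binomial intervals. Red stays at or below 5.14% for 1 to 3 input tags and lies between 14.4% and 17.1% from 4 input tags up.

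The input level sets how many NF-YB tags a call required, since a fold of 7 takes 7.05 NF-YB tags per input tag. For the 23 strong regions with a recovered input, the larger of this number and the minimum of 15 tags came to 15 to 78 NF-YB tags, with a median of 43. The input used was that recovered from the NF-YA fold, since these regions had no NF-YB fold. On chromosome 5 at 116295151 to 116295251, where this input was 11 tags, the required number was 78 NF-YB tags. On chromosome 11 at 101414031 to 101414091 the required number was 64. The 433 regions of all 3 subunits at 112 or more NF-YA tags held 18 to 351 NF-YB tags, with a median of 116, and 22 of them (5.08%) held fewer than 43. Their own required number, found in the same way, had a median of 29. Since their NF-YB sites had to pass the cut-offs, this share cannot show how often such regions fall short. The recovered input could differ between lists. For the region on chromosome 5 it was 11 tags from NF-YA and 13 from NF-YC, and for that on chromosome 11 it was 9 from both. The required numbers thus hold only where the NF-YB input equalled that of NF-YA. The sources do not state whether input was counted over the same stretch for both subunits, and a call also needed directional tags on each side of the site. At 59 to 312 NF-YA tags, the NF-YB fold where a site was called had a median of 17.6 over 520 regions with 4 or more input tags, of which 78 (15.0%) lay under 10. With 1 to 3 input tags the median NF-YB fold was 31.8 over 477 regions, of which 30 (6.29%) lay under 10. Fold divides site tags by input of the same background file, and the site calls used it. A lower NF-YB fold at higher input is thus built in, and these folds cannot show why NF-YB calls were missing. The part of the input level in the missing NF-YB calls was not tested.

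Relative to NF-YA, NF-YC was higher in the regions without NF-YB. With tags divided by the kept tags of their library, the ratio of NF-YC to NF-YA tags had a median of 0.821 (quartiles 0.609 and 1.11), against 0.618 (0.487 and 0.840) with NF-YB. NF-YC exceeded NF-YA in 203 of 613 regions without NF-YB (33.1%, 29.4 to 37.0) and in 261 of 1724 with it (15.1%, 13.5 to 16.9). The ratio fell with NF-YA tags in both groups, and at like NF-YA tags the groups were closer. The median without NF-YB was the higher one in 7 of 10 bins, the lower one in 2 and equal in 1. At 39 to 47 NF-YA tags the medians were 0.733 without NF-YB and 0.688 with it, and at 149 to 312 tags 0.453 and 0.519. Compared at like NF-YC tags, regions without NF-YB had the lower median of NF-YA tags in each of 10 bins. At 92 to 267 NF-YC tags it was 81.5 NF-YA tags without NF-YB and 162 with it. The higher ratio was not particular to regions without NF-YB. In the converse group, without NF-YC, the ratio of NF-YB to NF-YA tags had a median of 0.885. In regions of all 3 subunits that ratio had a median of 0.690.

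Some single regions stood far to either side. The most NF-YC tags, 146, came with 79 NF-YA tags on chromosome 19 at 60302611 to 60302651, which ranked 33 in the NF-YC list and 864 in the NF-YA list. Chromosome 13 at 49777411 to 49777491 was alike, with 144 NF-YC and 81 NF-YA tags. The highest ratio of scaled tags, 3.92, was on chromosome 4 at 124896631 to 124896671, where NF-YC had 105 tags and NF-YA 27. Ratios of 3.68 and 3.34 followed on chromosome 10 at 60002071 to 60002191 (73 NF-YC and 20 NF-YA tags) and chromosome 5 at 116761751 to 116761871 (63 and 19 tags). At the other end, chromosome 10 at 82321711 to 82321851 had 71 NF-YA and 20 NF-YC tags (ratio 0.284). Chromosome 19 at 4928291 to 4928471 had 117 NF-YA and 35 NF-YC tags (0.301), and its NF-YC fold of 7.05 barely passed the minimum. On chromosome 6 at 94650351 to 94650491 the ratio was 0.302, with 50 NF-YA and 15 NF-YC tags. NF-YC thus led NF-YA by over 2 times in 28 regions (4.57%), against 25 of the regions with all 3 subunits (1.45%).

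The joining rule kept the NF-YA and NF-YC centres of these regions within 200 bp of each other, so their closeness is a description, at a resolution limited by the 20 bp scanning window of the caller. Their median distance was 30 bp (quartiles 10 and 50 bp, at most 190 bp), against 20 bp (10 and 40) in regions of all 3 subunits. Within 50 bp of each other lay 479 of 613 pairs (78.1%, 74.7 to 81.4), beside 81.3% over all regions with both subunits, and within 100 bp 95.3%. The NF-YA and NF-YB centres of regions without NF-YC had the same median of 30 bp. Sites had a median width of 60 bp in both lists. A site wider than 200 bp occurred in 32 of the 613 regions (5.22%, 3.60 to 7.29), beside 6.07% of all regions.

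The nearest NF-YB site lay at a median of 105150 bp from the regions of NF-YA and NF-YC (quartiles 33005 and 317495 bp). The median was 128270 bp for regions of NF-YA alone and 149970 bp for regions of NF-YC alone, and no difference was tested. From a region of all 3 subunits to the next NF-YB site outside it, the median was 105640 bp. An NF-YB site lay within 10 kb of 61 regions (9.95%, 7.70 to 12.6), beside 9.95% over all 2584 regions without NF-YB, 9.45% for regions of NF-YA alone and 12.9% for NF-YC alone. Another region of any kind lay within 10 kb of 106 regions (17.3%, 14.4 to 20.5), beside 17.8% of all regions, and within 1 kb of 33 (5.38%), beside 5.68%. Of these 33 close neighbourhoods, 10 included a region of all 3 subunits and 12 a region of NF-YA alone. These 2 classes made up 32.2% and 31.6% of all regions. The shares near the background are no result about these regions. With regions joined by overlapping intervals in place of centres, the shares within 10 kb became 26.7% for an NF-YB site and 31.6% for any region. The shares over all regions were not computed for that joining, so these 2 values have no background beside them. The farthest from any NF-YB site was the region on chromosome 1 at 107886751 to 107886931 (22 NF-YA and 19 NF-YC tags), 10322650 bp away. Distances of 6134380 and 5168810 bp followed on chromosome 2 at 43787371 to 43787411 and chromosome 6 at 13628051 to 13628111.

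**Figure D4:**
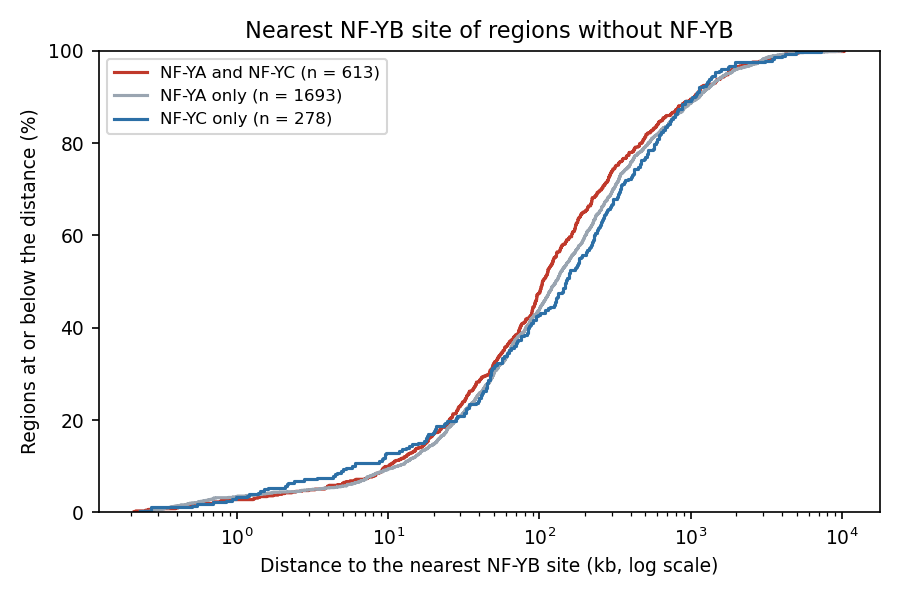
Cumulative percent of regions (y) by distance to the nearest NF-YB site (x, kb, log scale) for 613 regions of NF-YA and NF-YC (red), 1693 of NF-YA only (grey) and 278 of NF-YC only (blue). The curves run close together, with 9.95%, 9.45% and 12.9% of regions within 10 kb.

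Of the 100 kb windows that held any of the 613 regions, 552 held 1, 29 held 2 and 1 held 3. The 601 regions of NF-YA and NF-YB without NF-YC gave 549, 23 and 2 windows with 1, 2 and at least 3 regions. The window with 3 lay on chromosome 13 at 23600001 to 23700000 and held 12 NF-Y regions in all. Its 3 regions without NF-YB had 44, 53 and 49 NF-YA tags and 17, 28 and 62 NF-YC tags, and the first 2 lay 775 bp apart, at 23635411 to 23635551 and 23636171 to 23636271. NF-YB sites lay within 4645 to 9080 bp of all 3.

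By chromosome, the share of NF-YA and NF-YC regions without NF-YB was highest on X, at 23 of 55 regions (41.8%, 28.7 to 55.9). It was 29 of 81 on chromosome 13 (35.8%, 25.4 to 47.2) and lowest among the autosomes on chromosome 10, at 21 of 103 (20.4%, 13.1 to 29.5). The 3-subunit regions of X had a median of 43.5 NF-YA tags, lower than on any autosome. Applying the rates of the other chromosomes in each bin of NF-YA tags to the regions of X gave 20.6 of 55, against the 23 observed. The same calculation gave 23.3 for chromosome 13 and 48.4 for chromosome 11, where 61 of 216 regions lacked NF-YB. It exceeded the observed count on chromosome 10 (26.6 against 21), chromosome 2 (45.4 against 38) and chromosome 5 (44.0 against 36). The same held on chromosome 4 (48.4 against 42), chromosome 1 (36.6 against 31) and, by less, on some others. The part of the NF-YA tags in these shares was not tested. Chromosome X lacked NF-YC at a like rate, 18 of 50 regions with NF-YA and NF-YB (36.0%), and so did chromosome 13, at 32 of 84 (38.1%). Chromosome 10 differed, with 39 of 121 regions lacking NF-YC (32.2%). Chromosome Y had 1 region with NF-YA and NF-YC, which held NF-YB.

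**Figure D5:**
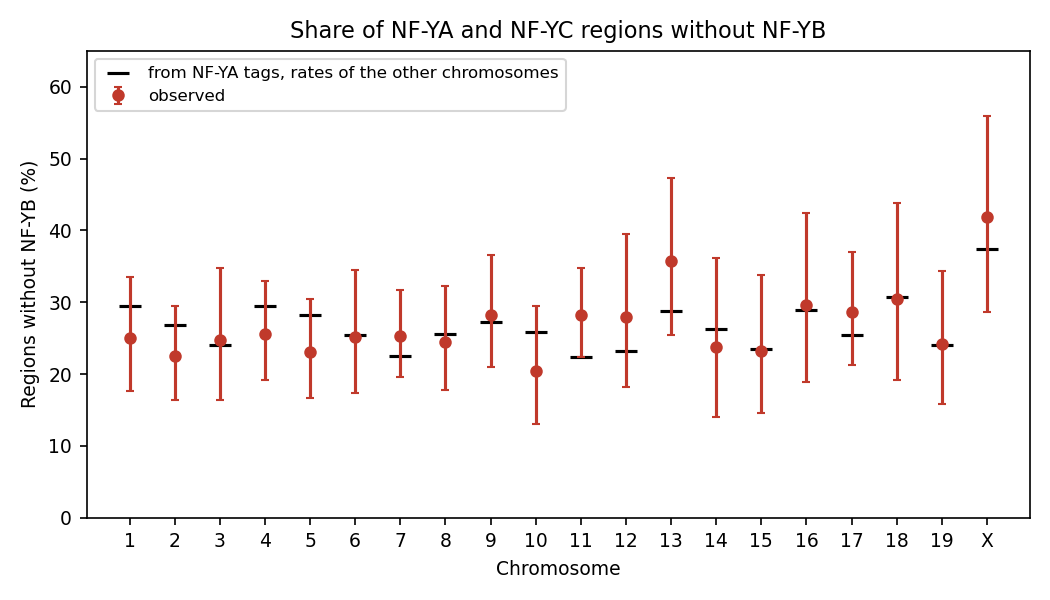
Percent of NF-YA and NF-YC regions without an NF-YB site on each chromosome (red, with exact 95% binomial intervals) and the percent obtained from the NF-YA tags of its regions with the rates of the other chromosomes (black bars). Chromosome X is highest at 41.8%, and its black bar is the highest as well.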

How the data were processed

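Chromatin immunoprecipitation and sequencing was done on NF-YA, NF-YB and NF-YC, with 1 library each and 1 input library. Bowtie placed the reads on mm9, per the submitters' processing notes, with a version not given in the sources used here. The authors called sites in each library separately with SISSRs 1.4 against 1 background file of 13767116 tags, per the file headers. Per the file headers, the p-value threshold was 0.001, the scanning window 20 bp, and 1 tag was kept per position, which caps the count of strong sites. The deposited tag counts are whole tags per site, not normalized. The deposited fold is a ratio of site tags over scaled input tags, and the deposited p-value is the caller's and served only as a filter in 1 alternative.

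Centres are midpoints of the printed intervals, and positions are printed as deposited. Where a region held several sites of a list, the one of most tags was used. Input was recovered as the whole number, at least 1, that gives the deposited fold within 0.005 from tags and the ratio of kept to background tags. This succeeded for 92.5% (NF-YA), 96.7% (NF-YB) and 94.9% (NF-YC) of all sites; over which stretch the caller counted is not stated. Shares have exact Clopper-Pearson 95% intervals, which cover counting error only. No test was made, since each subunit had 1 library and the calls define the groups. Joining and distances were tested on simulated lists. Named regions are the 5 of lowest mean rank, the 3 extremes of NF-YA tags, NF-YC tags, their ratio and the distance to NF-YB, and regions just outside the rule. Regions 4 and 5 in distance to NF-YB, the pairs within 1 kb and the fullest window were chosen after their values were seen, as were the bins by tags and the input levels. The regions and the rule were chosen with earlier results of these data known. Scripts ran in Python 3.11.15 (pandas 2.3.3, numpy 2.4.6, matplotlib 3.10.9, scipy 1.17.1).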

Additional observations from a re-analysis of the deposited data

How the results depend on the processing

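Over 17 alternative settings, 56 of 93 recomputed values stayed within the interval of the reported value, or within 1.5 times for the count of regions, and 37 moved. The median distance between NF-YA and NF-YC centres stayed at 20 to 30 bp in all 12 settings run for it. Stricter lists shortened the set: 296 regions with p of 0.0001 or less, 363 with tags at or above the median of each list, 245 with 30 or more NF-YA and NF-YC tags and the NF-YB list whole, and 382 with lists of equal length. In that order the share without NF-YB was 31.8%, 29.6%, 16.9% and 20.1%, the median NF-YA percentile 77.5, 74.6, 69.8 and 62.6, and the median NF-YC percentile 63.6, 67.1, 63.6 and 48.3. The share rose in the first 2 of these settings, which left 1133 and 1392 NF-YB sites. It fell in the other 2, which left 2774 and 2675. Each of these settings also shortened the NF-YA list, to 1468, 2386, 2681 and 2675 sites, so the part of the NF-YB list was not separated. A fold of 10 or more gave 28.8% with percentiles of 58.8 and 47.5. Overlapping intervals, with all 2774 NF-YB sites, gave 30.9% with 54.9 and 41.4. Ranking by fold gave an NF-YA percentile of 45.0. An NF-YB site lay within 10 kb in 7.54% (1000 bp joining), 26.7% (overlapping intervals), 6.42% (p of 0.0001 or less) and 12.7% (30 or more tags). Another region lay within 10 kb in 13.2% (1000 bp joining), 31.6% (overlapping intervals), 10.1% (p of 0.0001 or less) and 14.3% (tags at or above the median). The shares over all regions were not computed for these settings. Limits of 1, 50 and 100 kb gave 2.77%, 32.3% and 47.5% for NF-YB and 5.38%, 48.0% and 65.1% for any region. The cause of these moves was not tested. Chosen after seeing the data were 2 settings, leaving out sites wider than 200 bp (600 regions) and regions with an NF-YB site within 1 kb (596). Leaving out chromosome X gave 590. No paired analysis was possible because the series holds a single library of each subunit, and no replicate could be left out. The promoter, CCAAT and gene list descriptions planned were not run for want of mm9 sequence and annotation here. Depth limits each list at 14 or 15 tags.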
